A study of Rattus norvegicus with 24 samples.

Results

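The abdominal mammary glands of female rats given the top dose of 17β-estradiol were set against those of female rats given none, across every gene on the array. The members are the arrays labelled female with a dose of 10 µg/kg/day (3 arrays) or 0 (3 arrays), which makes 6 of the 24 arrays of the series. Sprague-Dawley rats of both sexes carried osmotic pumps under the skin between postnatal days 21 (weaning) and 33, and the daily delivery was 0, 0.1, 1 or 10 µg of estradiol for each kg of body weight. Frozen gland pairs were then profiled on Affymetrix rat arrays, 3 per sex and dose. All groups shared the pump and the prepubertal age, and the rats at 0 received a pump without estradiol, as far as the labels tell. Nothing in the labels ties an array to its own animal, and p-values therefore speak to array-to-array spread, which may be partly technical.

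Estradiol is the main estrogen of the ovary and acts mostly through estrogen receptor alpha, a transcription factor that hormone-sensing luminal cells of the mammary duct carry. In rodents it drives ductal growth at puberty, partly through growth factors made in the surrounding stroma, while the pituitary hormone prolactin and its effector STAT5 drive the secretory cells that make milk. The young gland is a small ductal tree inside a large pad of fat cells, with a lymph node and muscle close by. A difference in bulk tissue can come from fewer cells of a type or from less RNA per cell, and these cannot be told apart here.

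The deposited values are log values centred within each sex for each probe set, so they hold no absolute level, and neither the tissue nor the sex of an array could be checked against marker levels. They were taken as log2 values, though the base is not given, and every difference below is a log2 difference of female glands at 10 minus female glands at 0 with its SE, 3 arrays each, unless stated. One array at 0 stood apart. The mean of 25 hepatocyte transcripts was -0.60, -0.47 and -0.61 in replicates 10, 11 and 12 at 10, and 2.16, -0.08 and -0.02 in replicates 1, 2 and 3 at 0. Replicate 1 at 0 therefore carried far more liver transcripts than the other 5 arrays, and the counts and main genes are also given without it. The mean of 28 skeletal muscle transcripts ran 1.07, -1.04 and 0.81 at 10 and -2.98, 0.06 and -1.35 at 0, and that of 15 T cell transcripts -1.95, 0.74 and -0.04 at 10 and -0.39, 0.32 and 0.87 at 0. A sign of RNA quality, the 3′ signal of beta-actin minus its 5′ signal, lay between -0.0533 and 0.0103 at 10 and between 0.0179 and 0.0633 at 0, so that these groups did not overlap. The same measure of Gapdh lay between 0.0479 and 0.139 at 10 and between 0.0414 and 0.0926 at 0, and that of hexokinase between -0.119 and 0.0890 at 10 and between -0.0872 and 0.176 at 0, and in both the groups overlapped. The part of muscle, lymphocyte or RNA quality differences in the results was not tested.

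At 10 µg/kg/day, 9 of 20 milk and secretory genes rose, while 17 of 25 fat cell genes, 7 of 21 genes of sterol synthesis and uptake and 5 of 17 mast cell and eosinophil genes fell. Without replicate 1 at 0 these counts were 5, 3, 5 and 1, and with the hepatocyte mean as a covariate 2, 1, 0 and 1. Over all probe sets 51 passed with that covariate. The medians of the 4 lists were 1.06, -0.70, -0.38 and -0.55, and with the covariate 1.09, -0.56, -0.41 and -0.62. Each gene of a list is counted by 1 probe set, and 8 list genes whose counted probe set missed the threshold had another that passed. Of 31042 probe sets tested, 577 passed an adjusted p of 0.05 in limma with Benjamini-Hochberg adjustment, which is 1.86% of them. The 252 that rose (0.812%) covered 167 genes, and the 325 that fell (1.05%) covered 207 genes. A difference of at least 1, or 2-fold, was reached by 87 that rose and 71 that fell. The median difference of all probe sets was -0.0053. In all 577 the lowest array of one group lay above the highest of the other, against 9.67% of all probe sets that lay wholly higher at 10 and 10.2% wholly lower.

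**Figure D1:**
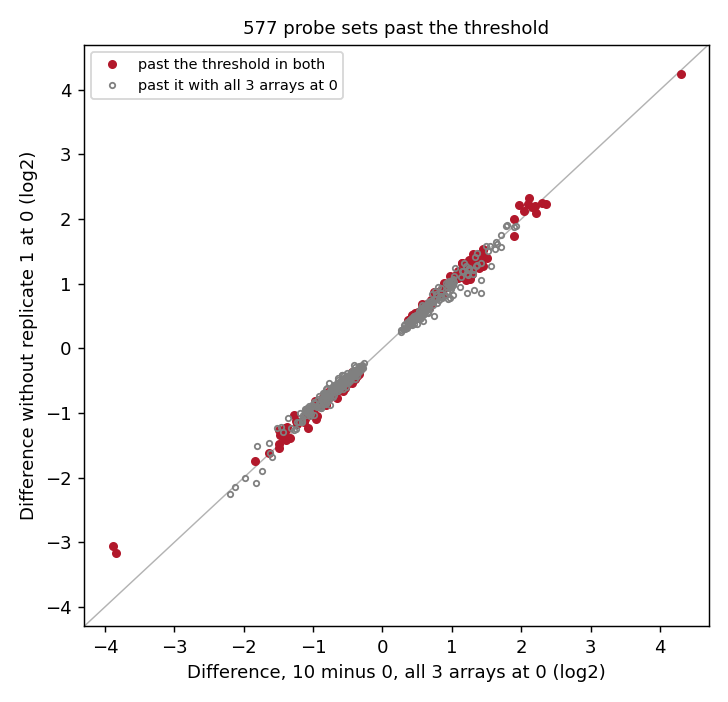
Each point is 1 of the 577 probe sets past the threshold. The horizontal axis is its log2 difference, 10 minus 0, with all 3 arrays at 0, and the vertical axis is the same without replicate 1 at 0. Filled points (156) passed both ways, open points passed with all 3 arrays at 0, and the points lie close to the line of equality while the number past the threshold drops.

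Without replicate 1 at 0, 164 probe sets passed (0.528%), 87 higher and 77 lower, and 156 of them had also passed with it. These 156 comprise 83 that rose, in 56 genes, and 73 that fell, in 49 genes. Leaving out any 1 of the 6 arrays gave between 158 and 552 calls, and 101 probe sets, 44 higher and 57 lower, passed in every one of the 6 fits. Counts of calls thus moved with the arrays used.

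Named genes include the 12 largest rises and the 12 largest falls that passed both with and without replicate 1 at 0. The largest rise among them was in Wap, whey acidic protein, a milk protein of rodents made by alveolar secretory cells. Its values were 3.17, 2.82 and 2.23 at 10 and -1.68, -1.85 and -1.15 at 0, a mean of 2.74 ± 0.47 against -1.56 ± 0.37 (SD, n = 3 each). The groups were far apart, with a difference of 4.30 ± 0.67, or 19.7-fold (95% interval 7.47 to 51.8) if the values are log2 (limma adjusted p = 0.0024). Without replicate 1 at 0 the difference was 4.24 (adjusted p = 0.018).

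Of 20 genes of milk protein and secretion, 9 rose and 0 fell, with a list median of 1.06, beside -0.0053 for all probe sets. Olah, the enzyme that releases the medium-chain fatty acids of milk in rodents, had 1.94, 1.85 and 1.20 at 10 and -0.78, -0.58 and -0.28 at 0, a difference of 2.21 ± 0.38. Slc34a2, a sodium-phosphate cotransporter found in secretory epithelia, differed by 2.11 ± 0.40. Lpo, lactoperoxidase, an antibacterial enzyme of milk, had 1.16, 1.03 and 0.70 at 10 and 0.18, -0.39 and -0.31 at 0, a difference of 1.14 ± 0.19. In these genes the 3 arrays at 10 were all above the 3 at 0, and all passed (adjusted p = 0.0056, 0.0092 and 0.0052). Folr1, folate receptor 1, rose by a smaller amount, 0.62 ± 0.08, with little spread, at 0.61, 0.61 and 0.45 at 10 against 0.03, -0.16 and -0.05 at 0 (adjusted p = 0.00079). Wap, Olah, Slc34a2, Lpo and Folr1 also passed without replicate 1 at 0.

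The caseins shared the direction with less certainty. Csn3, kappa-casein, had 1.60, 1.59 and 1.48 at 10 and -0.34, -0.70 and 0.05 at 0, a difference of 1.89 (adjusted p = 0.020). Csn1s1, alpha-S1-casein, differed by 0.98 (adjusted p = 0.017) and Lalba, alpha-lactalbumin, the regulator of lactose synthesis, by 1.31 (adjusted p = 0.018). Slc30a4, a zinc transporter, completed the 9 with a difference of 0.97 (adjusted p = 0.027). Without replicate 1 at 0 these 4 kept differences between 0.99 and 1.88, with adjusted p-values between 0.0525 and 0.0943, and did not pass by these probe sets. A second Slc30a4 probe set passed with and without that array (differences 0.97 and 1.01, adjusted p = 0.0041 and 0.018). Csn2, beta-casein, had 2.16, 2.03 and 1.88 at 10 and -0.30, -1.44 and 0.50 at 0. Its groups did not overlap, yet the difference of 2.44 did not pass (adjusted p = 0.12). Xdh, Mfge8 and B4galt1, which serve fat globule formation and lactose synthesis, differed by 0.31, 0.79 and 0.22 and did not pass. Plet1, also on this list, passed by other probe sets (1.24 and 1.31, adjusted p = 0.029 and 0.038). These did not pass without replicate 1 at 0 (adjusted p = 0.12 and 0.14). The list kept 4 to 9 rises when any 1 array was left out.

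**Figure D2:**
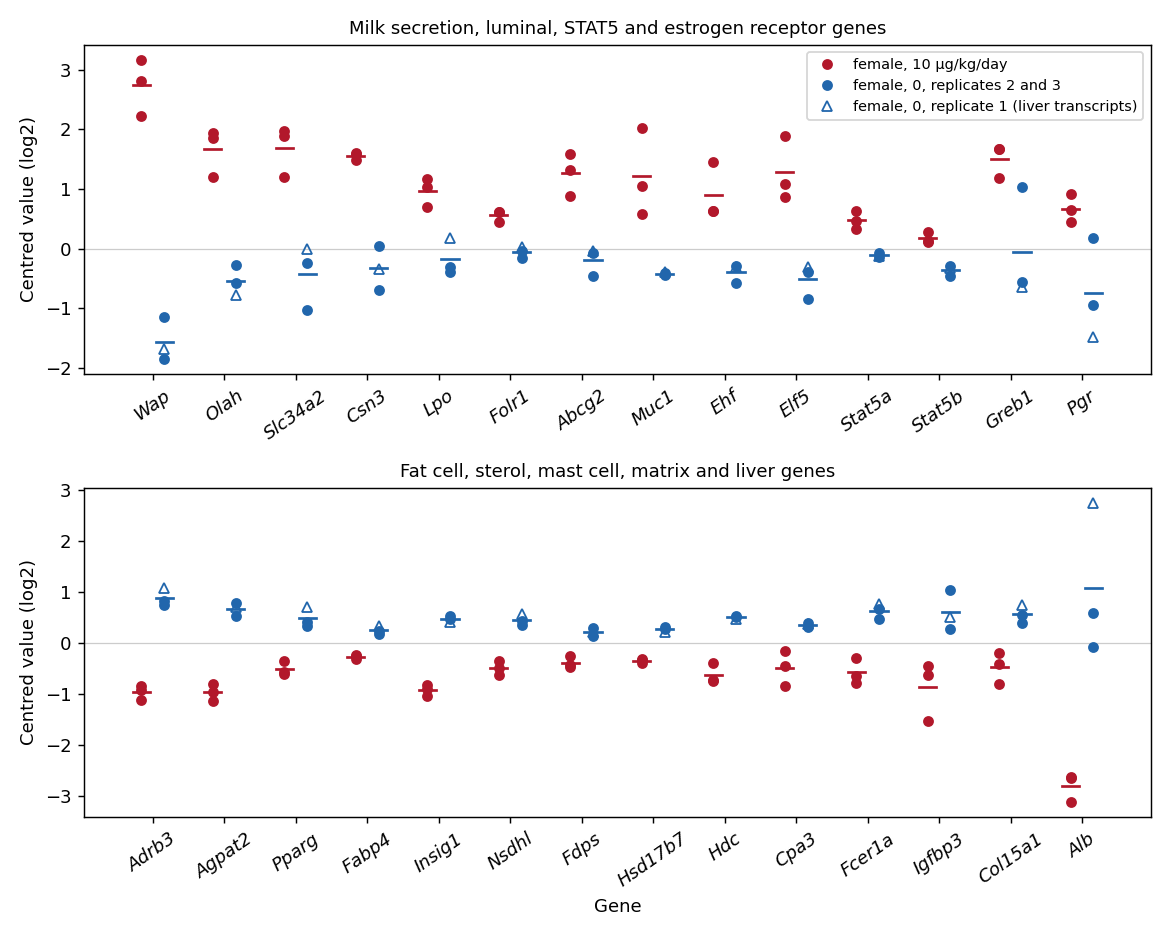
Centred log2 values of each female array at 10 (red) and 0 (blue, the open triangle being replicate 1 with liver transcripts), with a bar at each group mean. In the upper panel the arrays at 10 lie above those at 0 for every gene shown, from Wap (2.23 to 3.17 against -1.85 to -1.15) to Pgr, and in the lower panel they lie below. The triangle stands apart from replicates 2 and 3 at 0 in Alb and, among others, in Lpo (0.18 against -0.39 and -0.31) and Pparg (0.71 against 0.33 and 0.40). In Wap, Muc1 and Hdc it does not.

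Among 26 markers of luminal epithelium, the layer that lines ducts and alveoli, 4 rose and 0 fell, with a median of 0.51. Ehf, an ETS transcription factor of epithelia, had 1.46, 0.63 and 0.64 at 10 and -0.31, -0.57 and -0.29 at 0, a difference of 1.30 ± 0.22 (adjusted p = 0.0048). Muc1, an apical mucin, differed by 1.63 ± 0.33 and reached 2.02 in replicate 10 against -0.44 to -0.40 at 0 (adjusted p = 0.014). Cd14, a co-receptor for lipopolysaccharide found on luminal progenitors and macrophages, differed by 1.02 (adjusted p = 0.024). Elf5, the ETS factor that specifies alveolar cells downstream of prolactin, differed by 1.80 ± 0.46 and passed by a narrow margin (adjusted p = 0.0498). Ehf alone of the 4 passed without replicate 1 at 0. General keratins and adhesion genes of the same list did not pass, with 0.33 for Krt8, 0.15 for Krt18 and 0.49 for Epcam. Of 18 basal and myoepithelial markers only Acta2, smooth muscle actin, rose, by 0.62 (adjusted p = 0.0499, and 0.12 without replicate 1 at 0), and Krt5 and Krt14 differed by 0.44 and 0.26 without passing.

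The prolactin and STAT5 list of 15 genes had 3 rises and 0 falls, namely Stat5b, Stat5a and Elf5, and a median of 0.23. Stat5b had 0.28, 0.12 and 0.12 at 10 and -0.32, -0.29 and -0.45 at 0, a difference of 0.53 ± 0.09 (adjusted p = 0.0041, and 0.020 without replicate 1 at 0). Stat5a had 0.64, 0.46 and 0.33 at 10 and -0.12, -0.07 and -0.15 at 0, a difference of 0.59 ± 0.12 (adjusted p = 0.014, and 0.057 without that array). Both transcription factors were tightly grouped and did not overlap. Prlr, the prolactin receptor, differed by 0.10 ± 0.26 (adjusted p = 0.92), and its targets Cish and Socs2 by -0.05 and 0.23, without passing. Id2, also on this list, passed by another probe set (0.95, adjusted p = 0.013, and 0.059 without replicate 1 at 0).

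Estrogen receptor targets gave 3 rises and 0 falls among 24 genes by the probe sets that stand for them, with a median of 0.08. Igf1, insulin-like growth factor 1, is on this list and fell in its 2 other probe sets (-0.75 and -0.71, adjusted p = 0.010 and 0.032). Neither of these passed without replicate 1 at 0. Pgr, the progesterone receptor and a direct estrogen receptor target, had 0.65, 0.92 and 0.44 at 10 and -1.48, 0.17 and -0.95 at 0, a difference of 1.42 ± 0.32 (adjusted p = 0.028). Greb1, a cofactor of the estrogen receptor, had 1.19, 1.67 and 1.68 at 10 and -0.64, 1.04 and -0.56 at 0, a difference of 1.56 ± 0.37 (adjusted p = 0.033). In both genes replicate 2 at 0 was far above the other arrays at 0 and close to the arrays at 10. Stc2, a secreted glycoprotein hormone, differed by 0.53 (adjusted p = 0.047). None of the 3 passed without replicate 1 at 0, where Pgr differed by 1.06 (adjusted p = 0.14) and Greb1 by 1.27 (adjusted p = 0.15). Esr1, which encodes estrogen receptor alpha, differed by -0.27 ± 0.18 (adjusted p = 0.58), and Areg, the EGF family ligand that carries the estrogen signal in the mouse duct, by 0.20 ± 0.44 (adjusted p = 0.91), with arrays of the groups interleaved.

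Other genes among the 12 largest rises came from several functions. Extl1, a glycosyltransferase of heparan sulfate synthesis, had 1.13, 1.31 and 0.95 at 10 and -0.48, -0.07 and -0.35 at 0, a difference of 1.43 ± 0.14 (adjusted p = 7.5e-05). Zbtb40, a zinc finger protein, had 1.56, 1.78 and 1.70 at 10 and -0.52, -0.03 and -0.10 at 0, a difference of 1.89 ± 0.19 (adjusted p = 7.5e-05), but only 1 of its 2 probe sets gave that direction. The arrays at 10 were close together in both genes, which passed under each of the 8 other settings and in all 6 fits that left out 1 array. Qsox1, which forms disulfide bonds in secreted proteins, differed by 1.44, and Abcg2, the transporter that moves riboflavin and drugs into milk, by 1.45. Cxadr, a junctional adhesion protein that also serves as a virus receptor, differed by 1.51, and Kcnj15, an inward rectifier potassium channel, by 1.45. Ankrd34b, an ankyrin repeat protein, was spread at 10, with 2.99, 1.75 and 1.39, against -0.13, -0.28 and -0.06 at 0. Aass, the first enzyme of lysine breakdown, and Orm1, an acute phase plasma protein, were also spread, with 2.69, 0.42 and 1.23 for Aass and 2.37, 1.79 and 0.89 for Orm1 at 10. By the rule that chose them all 12 passed without replicate 1 at 0, and 6 of them, Wap, Olah, Ankrd34b, Zbtb40, Cxadr and Extl1, passed whichever array was left out.

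Of 25 genes of the white adipocyte and of triglyceride storage, 17 fell and 0 rose, all 25 differences were below 0, and the median was -0.70. Adrb3, the beta-3 adrenergic receptor that starts lipolysis in rodent fat, had -1.13, -0.93 and -0.85 at 10 and 1.07, 0.73 and 0.82 at 0, a difference of -1.84 ± 0.20, which is 3.59-fold lower (adjusted p = 0.00028). Agpat2, an acyltransferase of triglyceride synthesis, had -1.14, -0.81 and -0.97 at 10 and 0.70, 0.52 and 0.78 at 0, a difference of -1.64 ± 0.24 (adjusted p = 0.0017). Fabp4, the fatty acid carrier of fat cells, had -0.31, -0.24 and -0.26 at 10 and 0.32, 0.17 and 0.24 at 0, a difference of -0.51 ± 0.08 (adjusted p = 0.0036). These 3 genes kept their calls without replicate 1 at 0, and each group was narrow and clear of the other.

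The other 14 fat cell calls lost the threshold without that array by the probe sets that stand for the genes, although a second Dgat2 probe set passed with and without it (-1.04, adjusted p = 0.0036 and 0.026). Pparg, the master regulator of fat cell formation, had -0.63, -0.58 and -0.36 at 10 and 0.71, 0.33 and 0.40 at 0, a difference of -0.9995 (adjusted p = 0.0077), and without the array -0.88 (adjusted p = 0.053). Dgat2, the last step of triglyceride synthesis, differed by -1.14 and then by -1.03 (adjusted p = 0.0092 and 0.057). Acvr1c, an activin receptor of fat cells, differed by -1.36 and then by -1.08 (adjusted p = 0.0091 and 0.058). Plin4, Plin1 and Cidec, which coat lipid droplets, differed by -1.06, -0.77 and -0.88. Lipe and Mgll, which break triglycerides down, differed by -0.77 and -0.70, and Lpl, which takes up plasma lipid, by -0.59. Adiponectin, encoded by Adipoq, differed by -0.52 (adjusted p = 0.042). The list median without replicate 1 at 0 was -0.62, close to that with it, and leaving out any 1 array left 3 to 16 falls, the lowest without replicate 1. Leptin (Lep) and Cfd, a fat cell protease, gave -0.16 and -0.22 and did not pass. The mean of the list was -0.50, -0.50 and -0.34 at 10 and 0.53, 0.26 and 0.24 at 0.

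Of 21 genes of cholesterol synthesis and uptake, 7 fell and 0 rose, with a median of -0.38 (-0.42 without replicate 1 at 0, with 5 falls). Insig1, which holds the sterol sensor SCAP in the endoplasmic reticulum and is itself induced when sterols are low, had -0.91, -1.04 and -0.84 at 10 and 0.40, 0.47 and 0.52 at 0, a difference of -1.39 ± 0.25 (adjusted p = 0.0083). Nsdhl, a sterol dehydrogenase of the late pathway, had -0.49, -0.63 and -0.37 at 10 and 0.56, 0.34 and 0.42 at 0, a difference of -0.94 ± 0.17 (adjusted p = 0.0065). Both genes had narrow groups that did not overlap. Fdps, which makes farnesyl pyrophosphate, differed by -0.60 ± 0.11, and Hsd17b7, a ketoreductase of cholesterol synthesis that also acts on estrone, by -0.62 ± 0.12 (adjusted p = 0.0083 and 0.0091). Msmo1, Fdft1 and Acat2 differed by -0.54, -0.48 and -0.79 and also passed. Insig1, Nsdhl, Fdps, Hsd17b7 and Msmo1 kept their calls without replicate 1 at 0. Cyp51, lanosterol demethylase, is not among the 7, but a second probe set of it passed with and without that array (differences -0.61 and -0.59, adjusted p = 0.0037 and 0.026).

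Promoter stretches of the 4 sterol genes named by rule are shown because these genes fell together and because the CCAAT box, bound by NF-Y, is a known neighbour of sterol regulatory elements. Each is the 250 bases before the gene's start, 5′ to 3′ on the gene's strand, from RefSeq on build GRCr8. Capitals mark CCAAT or its reverse complement ATTGG.
Nsdhl (chrX:155817110-155817359, plus strand): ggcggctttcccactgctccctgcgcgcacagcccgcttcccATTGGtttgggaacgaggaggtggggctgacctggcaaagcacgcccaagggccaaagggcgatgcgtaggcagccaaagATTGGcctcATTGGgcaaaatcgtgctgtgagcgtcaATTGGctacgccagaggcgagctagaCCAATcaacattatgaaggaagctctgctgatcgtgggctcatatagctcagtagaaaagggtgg
Hsd17b7 (chr13:84722755-84723004, minus strand): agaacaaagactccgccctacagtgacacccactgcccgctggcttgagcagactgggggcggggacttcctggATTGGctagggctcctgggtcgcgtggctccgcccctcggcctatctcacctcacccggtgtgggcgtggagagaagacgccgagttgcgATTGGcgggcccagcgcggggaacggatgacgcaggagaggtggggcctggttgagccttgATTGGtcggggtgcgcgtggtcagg
Fdps (chr2:176804817-176805066, minus strand): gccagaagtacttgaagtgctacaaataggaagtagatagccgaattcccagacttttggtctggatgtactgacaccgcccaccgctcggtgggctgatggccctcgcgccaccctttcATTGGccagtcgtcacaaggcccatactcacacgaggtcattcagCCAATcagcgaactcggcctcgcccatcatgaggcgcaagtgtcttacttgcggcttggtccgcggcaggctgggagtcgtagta
Insig1 (chr4:8057770-8058019, minus strand): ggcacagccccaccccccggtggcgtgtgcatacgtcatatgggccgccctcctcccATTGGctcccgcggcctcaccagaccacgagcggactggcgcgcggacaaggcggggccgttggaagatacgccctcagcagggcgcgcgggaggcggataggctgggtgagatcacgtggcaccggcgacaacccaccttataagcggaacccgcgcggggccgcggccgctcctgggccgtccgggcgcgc
These stretches hold 5, 3, 2 and 1 matches in the order shown.

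Searched on both strands from 250 bases before to 50 after the start, CCAAT was in 5 of the 6 promoters found for the 7 sterol genes that fell (Fdps, Msmo1, Nsdhl, Hsd17b7 and Insig1). It was in 37.3% of 11700 promoters of genes on the array, in 38.1% of those of the genes that rose and in 41% of those of the genes that fell. The STAT5 motif TTCNNNGAA was in 5.22% of promoters of genes that rose and 5.42% of those that fell, against 6.99% on the array. The palindromic estrogen response element (GGTCA, any 3 bases, TGACC) and the sterol regulatory element (ATCACC followed directly by CCAC) were in 0 promoters of called genes, and in 0.0171% and 0.00855% of those on the array. The estrogen and sterol elements matched only 2 and 1 promoters on the array, so 0 matches says little about the called genes. A match describes letters in these windows and is not evidence of binding.

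Fatty acid synthesis gave 1 fall among 16 genes and 0 rises, with a median of -0.65. Acss2, which makes acetyl-CoA from acetate, had -0.64, -0.61 and -0.64 at 10 and 0.42, 0.44 and 0.39 at 0, a difference of -1.04 (adjusted p = 0.034, and 0.10 without replicate 1 at 0). Fasn, fatty acid synthase, differed by -0.78 and Acaca, acetyl-CoA carboxylase, by -0.68, and neither passed. Of the 16 differences 5 were above 0 and 11 below. At an unadjusted p under 0.05 in limma, 2 of these genes were higher and 6 lower. In fatty acid oxidation 0 of 21 genes passed in limma by the probe sets that stand for them, with 1 higher and 1 lower at an unadjusted p under 0.05. A second probe set of Pdk4, a brake on glucose oxidation, passed with a difference of 1.24 (adjusted p = 0.046, and 0.12 without replicate 1 at 0). Thermogenic fat genes gave 0 of 13, with 1 higher and 2 lower at an unadjusted p under 0.05, and Cidea, a lipid droplet protein of brown fat, differed by -0.67 (adjusted p = 0.10).

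Of 17 genes of mast cells and eosinophils, 5 fell and 0 rose, with a median of -0.55. Hdc, the enzyme that makes histamine, had -0.75, -0.73 and -0.41 at 10 and 0.46, 0.50 and 0.52 at 0, a difference of -1.12 ± 0.16 (adjusted p = 0.0012, and 0.011 without replicate 1 at 0). The arrays at 0 were nearly equal and well above those at 10. Cpa3, mast cell carboxypeptidase, differed by -0.85, Fcer1a, a chain of the IgE receptor, by -1.21, Cma1, chymase, by -0.83, and Gata2, a transcription factor of mast cells and vessels, by -0.57. These 4 kept differences between -1.14 and -0.58 without replicate 1 at 0 and did not pass there. Tpsab1 and Tpsb2, the tryptases, differed by -0.79 and -0.62 without passing (adjusted p = 0.073 and 0.065). Ms4a2, also on this list, passed by another probe set (-0.79, adjusted p = 0.035, and 0.12 without replicate 1 at 0).

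Lymphocyte genes varied between arrays of a group more than between groups. In limma 0 of 15 T cell and 0 of 13 B cell genes passed, and 0 of either list had an unadjusted p under 0.05, with medians of -0.64 and -0.47. Cd3d, a chain of the T cell receptor complex, had -2.98, 0.88 and -0.22 at 10 and -0.53, 0.53 and 1.15 at 0. Cxcl13, a chemokine that draws B cells into lymphoid follicles, had -2.67, -0.04 and -0.72 at 10 and 0.16, 0.60 and 1.26 at 0, a difference of -1.82 (adjusted p = 0.038, and 0.060 without replicate 1 at 0). Replicate 10 at 10 was the lowest array in Cd3d, Cxcl13 and both lymphocyte list means, and their part in the Cxcl13 result was not tested. Cxcl14, another chemokine, fell by 0.88 with -0.50, -0.50 and -0.26 at 10 and 0.39, 0.48 and 0.51 at 0 (adjusted p = 0.021, and 0.065 without replicate 1 at 0). Of 15 macrophage genes only Cd14 passed, and of 16 endothelial genes only Egfl7, a secreted vessel protein, with a difference of -0.37 (adjusted p = 0.024, and 0.078 without replicate 1 at 0). A second probe set of Kdr, a receptor for vascular endothelial growth factor, passed by a difference of -0.40 (adjusted p = 0.042, and 0.056 without that array).

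The growth hormone and IGF axis list and the collagen and stromal matrix list held 1 call each. Igfbp3, the main carrier of insulin-like growth factors in plasma, had -1.54, -0.45 and -0.64 at 10 and 0.50, 0.28 and 1.04 at 0, a difference of -1.49 ± 0.24 (adjusted p = 0.0037), and both of its probe sets passed. Its other probe set, which stands for the gene in the list, differed by -1.37 ± 0.24 (adjusted p = 0.0065). Igfbp3 was the 1 call among 16 genes of the growth hormone and IGF axis by the probe sets that stand for them. Igf1, insulin-like growth factor 1, passed in its 2 other probe sets (-0.75 and -0.71, adjusted p = 0.010 and 0.032). Neither of these Igf1 probe sets passed without replicate 1 at 0. Col15a1, a basement membrane collagen, had -0.42, -0.82 and -0.21 at 10 and 0.75, 0.54 and 0.38 at 0, a difference of -1.04 ± 0.16 (adjusted p = 0.0023), the 1 call among 30 collagen and stromal matrix genes. Col6a6, a chain of the collagen VI family, was among the 12 largest falls, at -1.40 ± 0.20. All 3 kept their calls without replicate 1 at 0.

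Of 26 genes of the Wnt pathway, Sfrp1 rose by 0.54 and Sfrp4 fell by 1.47, both secreted Wnt antagonists (adjusted p = 0.027 each). Sfrp4 was uneven, with -0.65, -1.56 and -0.54 at 10 and 1.05, -0.03 and 0.62 at 0. Of 15 genes of the EGF family, Ereg, a ligand, rose by 0.51 and Egfr, the receptor, by 0.58, while Nrg4, a ligand made by fat cells, fell by 0.57 (adjusted p = 0.022, 0.044 and 0.028). None of these 5 calls was kept without replicate 1 at 0. Of 23 amino acid transport genes, Slc1a5, a glutamine carrier, fell by 0.91 ± 0.13 (adjusted p = 0.0013, and 0.014 without that array), and Slc7a7 rose by 0.66 (adjusted p = 0.022, and 0.11 without it). Slc1a3, also on this list, passed by another probe set (-0.64, adjusted p = 0.027, and 0.14 without that array).

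Further large falls with no list of their own were Slc22a3, an organic cation transporter (-1.48), Kcnip1, a potassium channel subunit (-1.41), Nat8l, which makes N-acetylaspartate in brain and fat (-1.34), Tmeff1 (-1.27), Ankef1 (-1.25) and Slc36a2, a proton-coupled amino acid carrier (-1.24). Nat8l had -0.70, -0.72 and -0.64 at 10 and 0.56, 0.51 and 0.89 at 0. Of 3 probe sets for Kcnip1, 2 gave the direction. All 12 of the largest falls passed whichever array was left out.

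Most liver genes were lower and most muscle genes higher at 10, but both list means varied widely between arrays at 0. Both are given for the whole lists. Of 25 hepatocyte genes 24 were lower at 10, with a median of -1.21, yet only Alb and Rbp4 passed, and the median without replicate 1 at 0 was -0.39. Alb, albumin, had -3.13, -2.63 and -2.66 at 10 and 2.74, -0.09 and 0.58 at 0, a difference of -3.89 ± 0.68 (adjusted p = 0.0061), and without replicate 1 at 0 -3.05 (adjusted p = 0.040). Replicates 2 and 3 at 0 thus lay well above all arrays at 10 in Alb, while most other hepatocyte genes were near 0 in the same arrays, such as Cps1 with -0.04 and 0.04. Rbp4, the plasma retinol carrier that liver and fat cells both make, had -0.48, -0.74 and -0.48 at 10 and 0.78, 0.57 and 0.64 at 0, a difference of -1.23 ± 0.18 (adjusted p = 0.0018, and 0.018 without replicate 1). Whether hepatocyte transcripts have a part in the Alb difference was not tested.

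Of 28 skeletal muscle genes 26 were higher at 10, with a median of 1.56 and of 0.59 without replicate 1 at 0, and 0 passed in limma, with 3 higher at an unadjusted p under 0.05. Myh7, slow myosin heavy chain, had 1.94, -0.91 and 1.49 at 10 and -3.85, -3.55 and -2.35 at 0 (adjusted p = 0.18). Its groups did not overlap, but the spread across the arrays of the series was wide.

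Members of the cell cycle list did not pass. Of 40 cell cycle genes 37 were above 0, with a median of 0.38, and 0 passed in limma, against 19 higher and 1 lower at an unadjusted p under 0.05. Their list mean was 0.62, 0.04 and -0.04 at 10 and 0.01, -0.12 and -0.30 at 0, so replicate 10 at 10 lay above the rest. Mki67, a nuclear protein of dividing cells, had 1.16, 0.21 and 0.27 at 10 and -0.08, -0.08 and -0.40 at 0 (adjusted p = 0.10). Lists with 0 calls in limma also included 25 matrix proteases and inhibitors (4 higher and 3 lower at an unadjusted p under 0.05), 22 immediate early genes (1 and 0), 17 steroid receptors and enzymes (0 and 1), 19 interferon response genes (0 and 2), 21 genes of protein folding in the endoplasmic reticulum (1 and 2) and 21 junction genes (7 and 2). So did 13 keratinocyte genes (0 and 2), 14 Schwann cell genes (2 and 1) and 7 erythroid genes (0 and 3). Of 11 progesterone receptor signal genes 1 rose, which was Pgr itself, described above, and 0 rose without replicate 1 at 0.

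**Figure D3:**
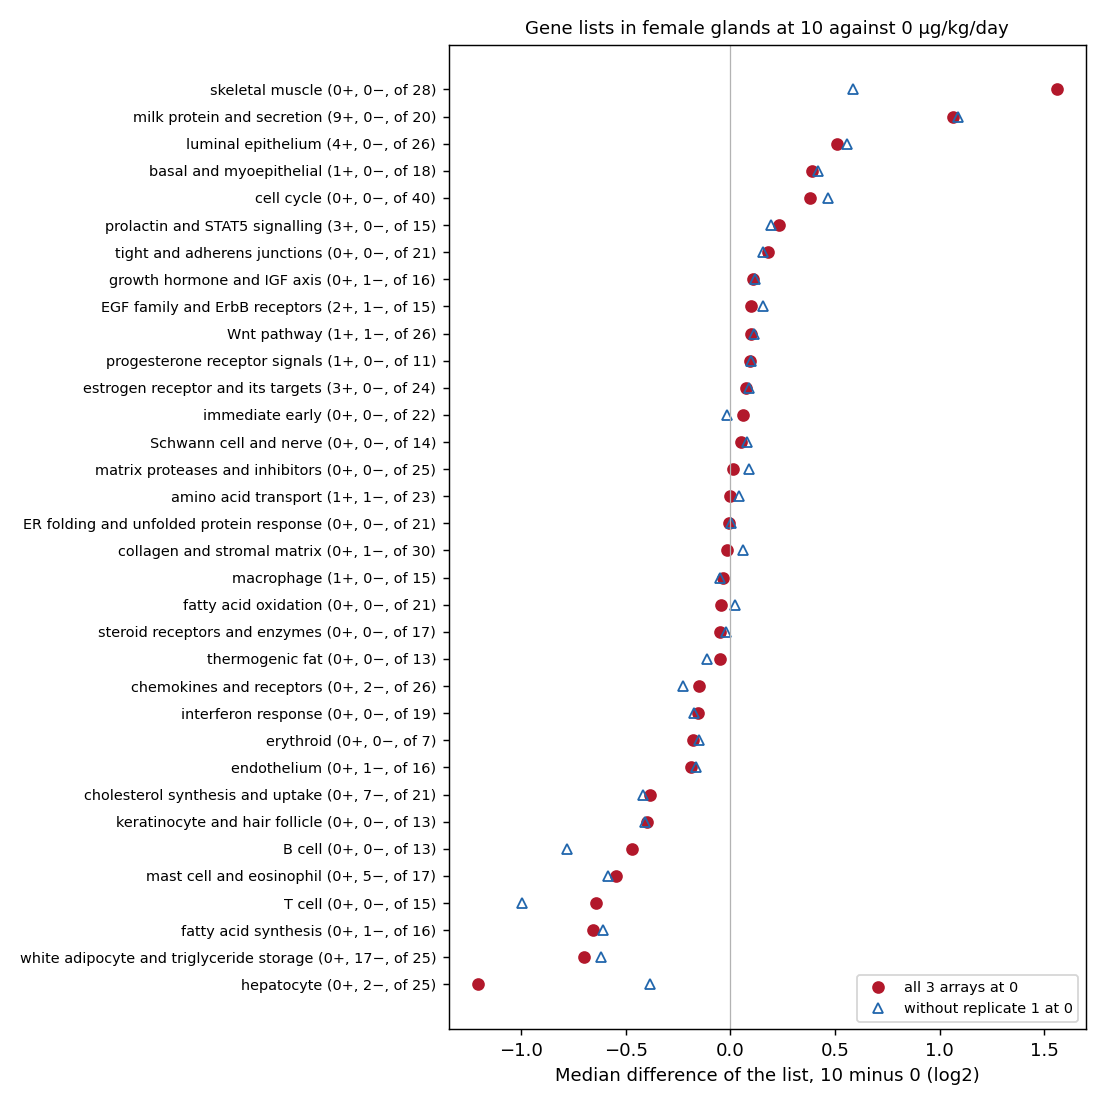
Median log2 difference of each gene list, 10 minus 0, with all 3 arrays at 0 (filled circles) and without replicate 1 at 0 (open triangles). Brackets give how many members rose (+) and fell (−) of those measured. The median was 1.06 for milk genes and -0.70 for white adipocyte genes, and skeletal muscle (1.56 against 0.59) and hepatocyte genes (-1.21 against -0.39) shift most when the array with liver transcripts is left out.

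The lower doses were set against 0 in the same fit. In limma 0 probe sets (0%) passed in female glands at 0.1, with 3083 at an unadjusted p under 0.05, and 0 (0%) at 1, with 847. Against 1, glands at 10 had 83 calls (0.267%), 57 higher (0.184%) and 26 lower (0.0838%). This comparison shares the arrays at 10 with the one above. Replicate 7 at 1 had a hepatocyte mean of 0.73, against -0.38 and 0.11 in the other arrays at 1.

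Wap had -1.68, -1.85 and -1.15 at 0, -2.65, -1.77 and 0.22 at 0.1, -0.26, 1.16 and 0.06 at 1, and 3.17, 2.82 and 2.23 at 10. All arrays at 10 were above all others, but the difference of 10 minus 1, 2.42 ± 0.67, did not pass (adjusted p = 0.14). Lpo stayed between -0.40 and 0.18 in all 9 arrays at 0, 0.1 and 1, and lay between 0.70 and 1.16 at 10, with a difference of 1.14 from 1 (adjusted p = 0.019). Extl1 and Zbtb40 behaved like Lpo, with differences from 1 of 1.17 and 1.95 (adjusted p = 0.0013 and 9.4e-05). Folr1, Olah and Slc34a2 also passed against 1, which made 4 of the 20 milk genes with Lpo. Adrb3 had 0.02, 0.06 and -0.79 at 0.1 and 0.10, 0.37 and -0.07 at 1, between its values at 0 and at 10, and its difference of 10 minus 1 was -1.11 (adjusted p = 0.030). It was the only fat cell gene of 25 past the threshold there. Of the 12 largest rises 7 passed against 1, and of the 12 largest falls 4.

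**Figure D4:**
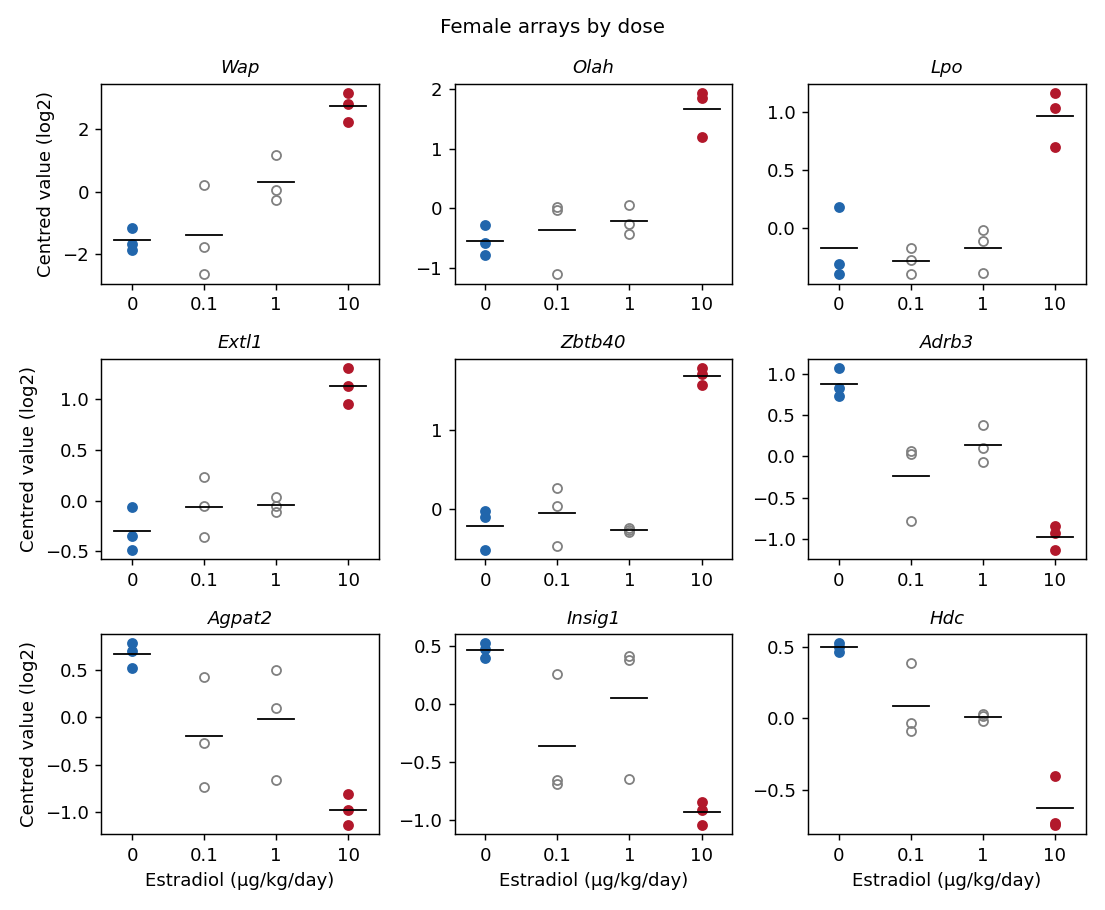
Centred log2 values of the 3 female arrays at each estradiol dose (0, 0.1, 1 and 10 µg/kg/day, evenly spaced) for 9 named genes, with a bar at each mean. Olah, Lpo, Extl1 and Zbtb40 stand apart at 10 alone, and Adrb3, Agpat2, Insig1 and Hdc have means at 0.1 and 1 between those at 0 and 10.

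The response to the top dose was also compared between the sexes. At 10 against 0, males had 5419 calls (17.5%), 2425 higher (7.81%) and 2994 lower (9.64%). The difference between the sexes, the female change minus the male change, passed for 397 probe sets (1.28%), 234 above 0 and 163 below. Male replicates 2 and 3 at 0 carried hepatocyte means of 1.23 and 2.32. Leaving out 1 of the 12 arrays gave 65 to 575 such calls, 65 without female replicate 3 at 0, 69 without female replicate 10 at 10 and 76 without male replicate 1 at 0.

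Areg gave the widest gap. It had -0.11, 0.27 and -0.31 in females at 10 and 0.11, -0.49 and -0.39 in females at 0, while males had 3.02, 3.32 and 2.75 at 10 and -2.88, -2.10 and -1.99 at 0. The female change was 0.20 and the male change 5.35, a difference of -5.15 ± 0.63 (adjusted p = 0.00065). Tnc, the matrix protein tenascin C, differed by -3.11 and Egr2, an immediate early transcription factor, by -2.35, with female changes of -0.01 and 0.09 and male changes of 3.10 and 2.44. In these 3 genes the female arrays overlapped and the male arrays did not, and all passed whichever array was left out. Pgr and Greb1 rose in males by 2.93 and 3.26, and their differences between the sexes, -1.51 and -1.69, did not pass (adjusted p = 0.10 each).

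For Lpo, Stat5b, Folr1 and Ehf the female change was the higher. Lpo had a female change of 1.14 and a male change of -0.42, a difference of 1.56 ± 0.27 (adjusted p = 0.013). Stat5b had 0.53 in females and -0.16 in males, a difference of 0.69 ± 0.12 (adjusted p = 0.014), and Folr1 0.62 and 0.04, a difference of 0.58 ± 0.11 (adjusted p = 0.018). Ehf had 1.30 and 0.0009, a difference of 1.30 (adjusted p = 0.044). Wap changed by 4.30 in females and 0.93 in males, and that difference of 3.37 did not pass (adjusted p = 0.078). Of the 20 milk genes 3 differed between the sexes, all with the higher change in females. Lpo and Stat5b passed whichever array was left out, Folr1 in 11 of 12 such fits and Ehf in 2. With the replicate number as a block Folr1 and Ehf did not pass (adjusted p = 0.051 and 0.055). Without the 5 arrays that held hepatocyte transcripts Folr1, Lpo and Ehf did not pass (adjusted p = 0.089, 0.0504 and 0.15), and Stat5b passed under both settings (0.024 and 0.027).

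No fat cell gene passed the test between the sexes. Of the 25, 23 fell in males and 0 differed between the sexes, with a median female change of -0.70 and male change of -1.42. Adrb3 fell by 1.84 in females and by 1.99 in males, a difference of 0.15 ± 0.29, and Hdc by 1.12 in females and by 1.11 in males. None of the 12 largest female falls differed from the male change, which does not show that the changes were equal.

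**Figure D5:**
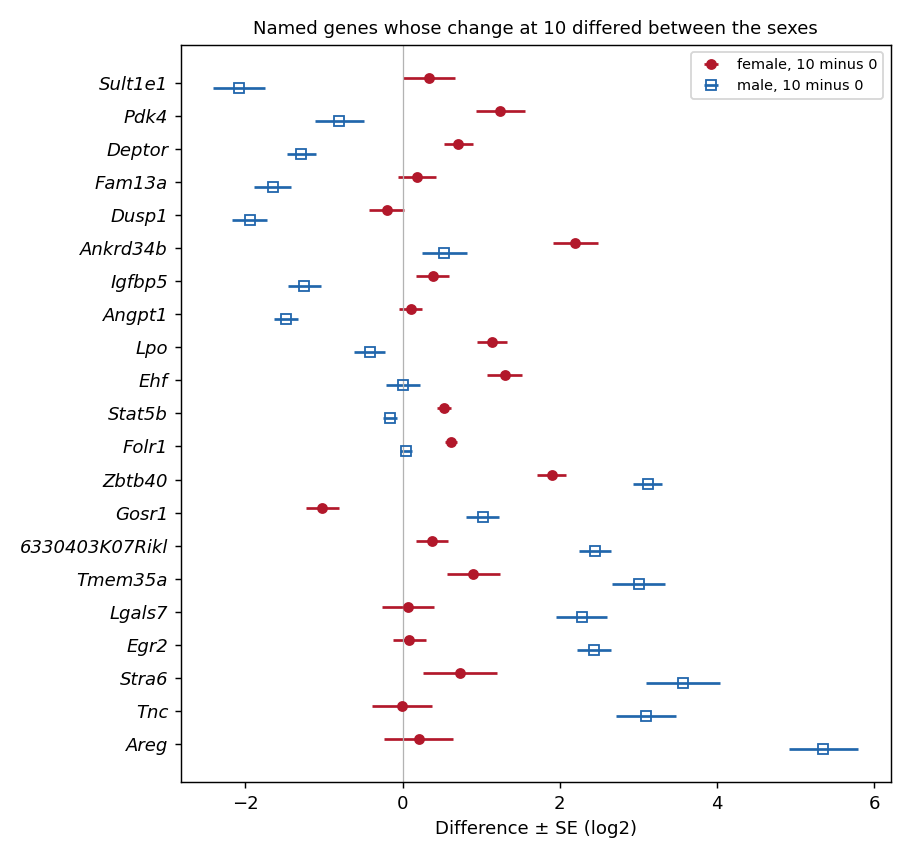
Log2 change at 10 minus 0 with its SE for the named genes whose change differed between the sexes, female (red circles) and male (blue squares), 3 arrays per group. Areg has the widest gap (0.20 in females and 5.35 in males), Lpo, Ehf, Stat5b and Folr1 changed in females with male changes near or below 0, and Zbtb40 rose in both.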

How the data were processed

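Abdominal mammary gland RNA was labelled with biotin and hybridised to Affymetrix rat arrays, per the labels' protocols. The deposited table holds signed log values, taken here as log2, for 31099 probe sets and 24 arrays. The submitters' processing notes list GCOS, the Affymetrix operating software, with no version and no stated use. How probe sets were summarized, normalized and centred, and in which log base, is not given in the sources used here. The values just above and just below 0 mirrored each other within one sex in 45.3% of probe sets over female arrays and 41.9% over male arrays (tolerance 2e-06), so each probe set was taken as centred within a sex. Array medians lay between -0.0175 and 0.0134, and no further normalization was applied. The number of arrays limits the precision.

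Groups were taken from the sample titles. Of the probe sets, 57 controls were left out and 31042 were tested, of which 20826 name 1 gene (14217 genes), 436 several and 9780 none in the platform annotation. A model of 8 group means was fitted to each with limma 3.58.1 (R 4.3.3; 16 residual and 2.95 prior degrees of freedom), with Benjamini-Hochberg adjustment across the 31042 and a threshold of 0.05. All p-values are two-sided. The script was tested on simulated data.

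The rule for named genes took 12 rises and 12 falls, the largest past the threshold both with and without female replicate 1 at 0, with 1 gene and groups that do not overlap, up to 4 members of each of 34 gene lists that passed, or the 2 with the smallest p where none did, Esr1, Pgr, Prlr, Areg, Greb1, Csn2, Wap and Alb, and the 8 genes in each direction whose change differed most between the sexes. Other list members are quoted by role, and their choice was made after their values were seen. In a list, a gene stands as its probe set with the largest SD over the male arrays. The groups, members and lists were chosen with earlier results of these data known, so no list is independent support. Lists are described by counts and medians, with no test of a list.

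Alternatives were the groups compared alone, the female arrays alone, leaving out 5 arrays with hepatocyte transcripts, the hepatocyte mean as a covariate, quantile normalization, array weights, robust shrinkage, a filter on SD, a 2-fold minimum, each array left out in turn, all probe sets of a gene averaged, and, between the sexes, the replicate number as a block.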

Additional observations from a re-analysis of the deposited data

Results flagged for a closer look

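For 21 named genes the change at 10 against 0 differed between females and males by the interaction test in limma (adjusted p under 0.05 over all probe sets, 3 arrays per group). The values are the female change minus the male change on the log2 scale.

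Among genes that rose in females it was 1.67 for Ankrd34b, 0.58 for Folr1, 1.56 for Lpo, 1.30 for Ehf and 0.69 for Stat5b, each with the larger change in females. It was -1.22 for Zbtb40, which rose in both sexes and by more in males. Pdk4, a brake on glucose oxidation, gave 2.05 and Deptor, an inhibitor of mTOR, 1.998, and both rose in females. Neither of these rises passed without female replicate 1 at 0 (adjusted p = 0.12 and 0.056). The difference was 2.42 for Sult1e1, the sulfotransferase that inactivates estrogens, 1.84 for Fam13a, 1.74 for Dusp1, a phosphatase of MAP kinases, 1.63 for Igfbp5 and 1.59 for Angpt1, an angiopoietin. The female changes of these 5 lay between -0.20 and 0.38 and did not pass.

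The male change was the higher for the rest. The difference was -5.15 for Areg, -3.11 for Tnc, -2.83 for Stra6, a retinol transporter, -2.35 for Egr2, -2.21 for Lgals7, a galectin of keratinocytes, -2.11 for Tmem35a and -2.07 for 6330403K07Rikl, with female changes that did not pass. It was -2.05 for Gosr1, a Golgi trafficking protein, which fell by 1.03 in females and rose by 1.02 in males, though only 2 of its 3 probe sets shared the female direction. The fall in females did not pass without female replicate 1 at 0 (adjusted p = 0.065). Of the 21, 10 passed whichever of the 12 arrays was left out, 13 passed without the 5 arrays that held hepatocyte transcripts and 17 passed with the replicate number as a block. Tmem35a passed in 1 of the 12 fits that left out an array, Ehf and Stra6 in 2, and Ankrd34b in 3.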

How the results depend on the processing

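For 10 against 0 in females, against 577 calls, there were 127 with the groups compared alone, 73 with female arrays only, 90 without the 5 arrays with hepatocyte transcripts, 51 with the hepatocyte mean as a covariate, 908 after quantile normalization, 1218 with array weights and 158 with a difference of at least 1. Robust shrinkage gave 568 and the filter on SD 423. Leaving out 1 array gave 158 to 552 calls, 164 without replicate 1 at 0, 260 without replicate 2, 259 without replicate 3, 158 without replicate 10 at 10, 231 without replicate 11 and 552 without replicate 12. For 10 against 1 in females, against 83 calls, the same settings gave 1, 3, 22, 23, 169, 166 and 39, and 9 to 153 with 1 array left out, 9 being without replicate 8 at 1. For the difference between the sexes, against 397 calls, array weights gave 3491, quantile normalization 152, the filter on SD 196 and a difference of at least 1 gave 131, with 65 to 575 when 1 array was left out. With fewer arrays fewer degrees of freedom remain. The cause of the other shifts was not tested.

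Within a sex the doses share no replicate numbers. Between the sexes the replicate block gave 443 calls. Correlations of same-numbered arrays ran from -0.25 to 0.56 and 2 of 6 exceeded 0.1, so the numbers were not taken as pairs. Over the named genes, 2304 values were computed under other settings. Of these 0 reversed a called direction, 546 lost the threshold, 25 gained it, 15 changed sign without a call on either side and 1718 kept direction and side. Of 62 named probe sets past the threshold for 10 against 0, 37 passed without replicate 1 at 0, 31 in all 6 fits with 1 array left out and 6 under all 8 other settings. Centred values hold no signal over background, so dim probe sets could not be told from bright ones.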

Other observations

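Several genes that the text has not yet described passed the threshold in females at 10 against 0, and those below were chosen after their values were seen. Among secreted and membrane factors, Tgfb3, a transforming growth factor, had 0.86, 1.12 and 0.77 at 10 and -0.26, -0.36 and -0.02 at 0, a difference of 1.13 ± 0.25 (limma adjusted p = 0.025, and 0.093 without replicate 1 at 0). Rspo3, an enhancer of Wnt signals, had 0.68, 0.58 and 0.30 at 10 and -0.41, -0.31 and -0.29 at 0, a difference of 0.85 ± 0.13 (adjusted p = 0.0018, and 0.018 without replicate 1 at 0). Kitlg, the ligand of the receptor KIT on which mast cells depend, had 0.42, 0.21 and 0.05 at 10 and -0.41, -0.68 and -0.54 at 0. It was higher at 10 (difference 0.77, adjusted p = 0.023, and 0.056 without that array). Another of its 4 probe sets passed with and without that array (0.44 with it, adjusted p = 0.026 and 0.037). A link to the 5 mast cell genes that were lower was not tested. The groups did not overlap in Tgfb3, Rspo3 or the Kitlg values shown. Tlr2, an innate immune receptor, differed by 0.82 and Neo1, a netrin receptor, by 0.65, and both kept their calls without replicate 1 at 0 (adjusted p = 0.026 and 0.018). Of 3 probe sets for Neo1, 2 gave that direction. Muc4, a membrane mucin, differed by 1.71, Cebpd, a transcription factor, by 0.72, and Plin2, the droplet coat protein also found on milk fat globules, by 1.14 in the probe set that passed, with 1 of its 2 probe sets in that direction. These 3 did not pass without replicate 1 at 0 (adjusted p = 0.095, 0.11 and 0.058). Fbxo32, a muscle ubiquitin ligase, differed by 1.09 (adjusted p = 0.019, and 0.044 without that array).

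Mcam, Nid2, Fgd5, Tal1 and Dll4 fell, while of the 16 genes of the endothelial list 1 had passed. Mcam, an adhesion protein of vessels, had -0.38, -0.35 and -0.32 at 10 and 0.72, 0.44 and 0.37 at 0, a difference of -0.86 ± 0.11 (adjusted p = 0.0010, and 0.0100 without replicate 1 at 0), with both probe sets past the threshold. Nid2, a basement membrane linker, differed by -0.89, Fgd5, an endothelial exchange factor, by -0.67, Tal1, a transcription factor of blood and vessels, by -0.41 and Dll4, a Notch ligand of arteries, by -0.40. All 5 also passed without replicate 1 at 0 (adjusted p between 0.0100 and 0.0499). They differed in how firm they were. Mcam and Nid2 passed in all 6 fits that left out 1 array, Fgd5 in 4, Dll4 in 2 and Tal1 in 1. For Tal1 and Dll4 only 1 of 2 probe sets passed. Of the lipid genes Pnpla3, a lipase, and Angptl8, a fat and liver hormone that restrains lipoprotein lipase, differed by -2.13 and -1.63 (adjusted p = 0.034 and 0.038) and did not pass without that array.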
